A study of Mus musculus with 6 samples.

Results

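The genes described are 8 carbonic anhydrases, Car2, Car3, Car4, Car8, Car12, Car13, Car14 and Car15, and the 2 kidney ammonia channels of the Rhesus family, Rhbg and Rhcg. They were picked by gene symbol from a table of 23873 gene rows, where each of the 10 symbols matched 1 row, and all 10 passed the filter on low values. The RNA came from kidneys taken from mice at 8 weeks of age. The first group, called NICD2_Pax8 here, holds 3 libraries with the genotype R26NICD2/+pax8cre, an allele at the Rosa26 locus for the intracellular domain of Notch2 together with a Pax8 driver of Cre, which is active along the tubule epithelium. The second group holds 3 wild-type libraries. The driver is Pax8-Cre in the genotype labels but Pax-rtTA in the series title. The wild-type library titles start with NICD, and whether those mice carried the allele without a driver is not given in the labels. Nor do the labels tie each library to its own mouse, so p-values reflect only sample-to-sample spread, part of which may be technical. Values listed per library are in the order of replicates 1, 2 and 3.

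Carbonic anhydrases are zinc enzymes that interconvert carbon dioxide and water with bicarbonate and a proton. In the kidney, cytosolic Car2 works inside proximal tubule and intercalated cells, and membrane-bound forms act on the tubule fluid, so that filtered bicarbonate is reclaimed and acid is secreted. Ammonia made from glutamine in the proximal tubule carries much of the acid that leaves in urine, and Rhbg and Rhcg let it cross the membranes of collecting duct cells.

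Expression was given as FPKM, a level corrected for transcript length and sequencing depth, so levels of different genes can be set side by side. Fold changes were tested with limma on log2(FPKM + 1) over 13500 genes, and a gene was called at a Benjamini-Hochberg adjusted p under 0.05. The file also has a row spelled NOTCH2, without a position or stated origin, which read 500.5 to 570.4 FPKM in NICD2_Pax8 libraries and 1.27 to 3.75 FPKM in wild-type libraries. Depth, estimated from the steps between low values, was 15900000 to 17600000 fragments in NICD2_Pax8 libraries and 14600000 to 15000000 fragments in wild-type libraries. Wild-type replicate 1 stands apart: its 8 adrenal markers, of which Hsd3b1, an enzyme of steroid synthesis, was the most abundant, summed to 3707 FPKM, against 1.46 to 1.77 FPKM in the other 5 libraries. Over all tested genes the log2 fold change had a median of 0.32 as deposited and -0.00 after median-of-ratios scaling, a scaling that centres the bulk of genes, so changes are also given after that scaling where it moves a call. The top 10 genes by level held 6.65% to 7.62% of all FPKM in NICD2_Pax8 libraries and 17.4% to 23.4% in wild-type libraries.

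The promoters of Rhcg, Car15 and Car4 are shown first, since Rhcg and Car15 fell and Car4 rose. Each runs 5′ to 3′ over the 250 bases before the RefSeq transcription start (RefSeq, build GRCm38.p6), and capitals mark TGGGAA, the core letters bound by RBPJ, the DNA-binding partner of the Notch intracellular domain. The windows are chr7:79617658-79617907 on the minus strand for Rhcg, chr16:17838187-17838436 on the minus strand for Car15 and chr11:84957504-84957753 on the plus strand for Car4.
Rhcg: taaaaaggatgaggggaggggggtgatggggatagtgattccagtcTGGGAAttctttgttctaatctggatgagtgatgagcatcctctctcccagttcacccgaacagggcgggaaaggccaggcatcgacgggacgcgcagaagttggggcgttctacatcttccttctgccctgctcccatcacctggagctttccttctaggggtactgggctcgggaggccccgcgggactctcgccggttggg
Car15: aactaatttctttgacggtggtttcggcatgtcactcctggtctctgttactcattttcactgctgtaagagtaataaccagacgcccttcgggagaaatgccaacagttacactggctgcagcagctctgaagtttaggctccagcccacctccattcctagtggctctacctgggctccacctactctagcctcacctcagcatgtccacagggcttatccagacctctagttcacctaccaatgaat
Car4: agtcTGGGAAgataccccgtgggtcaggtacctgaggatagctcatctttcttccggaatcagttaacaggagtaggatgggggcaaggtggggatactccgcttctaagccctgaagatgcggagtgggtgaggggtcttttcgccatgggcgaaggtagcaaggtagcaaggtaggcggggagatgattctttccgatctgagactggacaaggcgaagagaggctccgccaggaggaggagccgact

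A promoter window was given for 5 of the 10 genes, Car4, Car12, Car14, Car15 and Rhcg. The letters TGGGAA, searched on both strands (TTCCCA on the other), occurred once in the Rhcg window, starting at position -204 from the start site, and once in the Car4 window, starting at position -246. They were not in the windows of Car12, Car14 and Car15. The windows of Car12 (chr9:66713436-66713685) and Car14 (chr3:95904686-95904935) lie inside the gene spans given further on. The bases before the outer start of those 2 spans were not searched. Of 27025 windows of the same length, 21.5% held the letters on either strand, so 2 of 5 is a description of these windows, and of these 2 genes 1 fell and 1 rose. The G and C content was 50% in the Car15 window, 58.4% in the Rhcg window and 56.4% in the Car4 window, against a median of 52% over all windows.

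In NICD2_Pax8 kidneys, 4 of the 10 genes fell and 4 rose. Car12, Car14 and Car15, membrane-bound anhydrases, and Rhcg fell 4.89-fold to 26.8-fold in mean FPKM, while Car4, another membrane-bound anhydrase, Car13, Car8 and Rhbg rose 1.63-fold to 2.88-fold. Car2 and Car3 did not pass the test. The median log2 fold change of the 10 genes was -1.23, where that of all tested genes was 0.32. Among all tested genes 61.4% were called, 45.1% higher and 16.2% lower. After median-of-ratios scaling 4 of the 10 rose and 6 fell, where 54.6% of all tested genes were called, 27.6% higher and 27% lower. The groups did not overlap for 8 of the 10 genes, 4 higher and 4 lower, against 68.7% of all tested genes, 49.9% higher and 18.8% lower. For rises the 10 genes are near the share of all genes. In whole kidney, fewer cells of a type and less RNA per cell cannot be told apart.

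**Figure D1:**
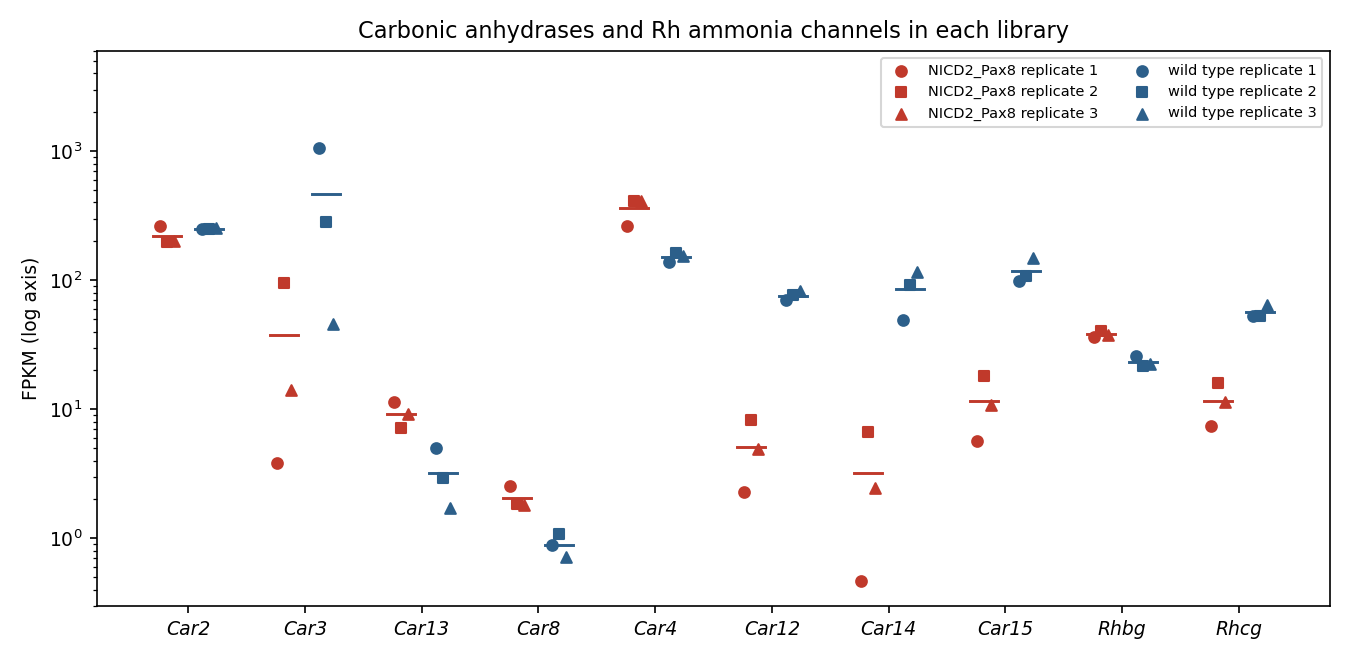
FPKM of the 10 genes in each library on a log axis, with NICD2_Pax8 in red and wild type in blue; each symbol is a library and the short line is the group mean of 3 libraries. The groups overlap for Car2 and Car3 and are apart for the other 8 genes.

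The membrane-bound anhydrases went in opposite directions. Car14 (gene 23831, chromosome 3, 95897768 to 95905117, positions from the file, on GRCm38), a transmembrane enzyme with its active site outside the cell, measured 0.47, 6.64 and 2.45 FPKM in the 3 NICD2_Pax8 libraries, against 49.2, 91.6 and 115.1 FPKM in the 3 wild-type libraries. All NICD2_Pax8 libraries lay far below all wild-type libraries, with replicate 1 the lowest, where the value rested on about 15 fragments. Its log2 fold change was -4.59 (SE 0.60, limma adjusted p = 8.14e-04), which placed it below all but 0.185% of tested genes. The fall in mean FPKM was 26.8-fold, and 58.4-fold without NICD2_Pax8 replicate 2, the library with the highest level of the group.

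Car12 (gene 76459, chromosome 9, 66712296 to 66766845), another transmembrane enzyme with an outward active site, measured 2.27, 8.19 and 4.95 FPKM in the 3 NICD2_Pax8 libraries. The wild-type libraries measured 69.8, 76.3 and 81.8 FPKM, close to each other and all above NICD2_Pax8. The log2 fold change was -3.77 (SE 0.35, limma adjusted p = 2.10e-04), and mean FPKM fell 14.8-fold. Car15 (gene 80733, chromosome 16, 17835276 to 17838186), a lipid-anchored enzyme of the mouse kidney, had 5.68, 18.1 and 10.8 FPKM in the 3 NICD2_Pax8 libraries, against 98.7, 108.3 and 147.6 FPKM in the 3 wild-type libraries. The groups did not overlap, and among the NICD2_Pax8 libraries replicate 2 was again the highest and replicate 1 the lowest. Car15 fell 10.2-fold in mean FPKM, or -3.36 as a log2 fold change (SE 0.37, limma adjusted p = 4.19e-04).

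Car4 (gene 12351, chromosome 11, 84957754 to 84966054), the lipid-anchored enzyme of the proximal tubule brush border, had 262.7, 414.3 and 411.3 FPKM in the 3 NICD2_Pax8 libraries. The 3 wild-type libraries had 139.2, 161.4 and 155.0 FPKM, all below NICD2_Pax8. Car4 rose 2.39-fold in mean FPKM (log2 fold change 1.22, SE 0.19, limma adjusted p = 0.00176). After median-of-ratios scaling the rise was 0.84 on the log2 scale (limma adjusted p = 0.0168).

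Transcripts that mark the proximal tubule fell in the same libraries. Of 12 such markers 12 fell and 0 rose, with a median log2 fold change of -4.50, where the median of all tested genes was 0.32. Over all tested genes 16.2% were lower. The markers with the smallest p were Dpep1, a dipeptidase of the brush border, and Lrp2, the endocytic receptor megalin, which fell 14.9-fold and 5.83-fold in mean FPKM. Summed FPKM of the list was 484 to 5195 in NICD2_Pax8 libraries and 60782 to 92897 in wild-type libraries. Most of that sum in wild-type libraries was Kap, an androgen-regulated kidney protein, which measured 59.9, 4192 and 730.2 FPKM in the 3 NICD2_Pax8 libraries against 55466, 79734 and 84655 FPKM in the 3 wild-type ones. The part of these shifts in the levels of Car12, Car14, Car15 and Car4 was not tested.

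**Figure D2:**
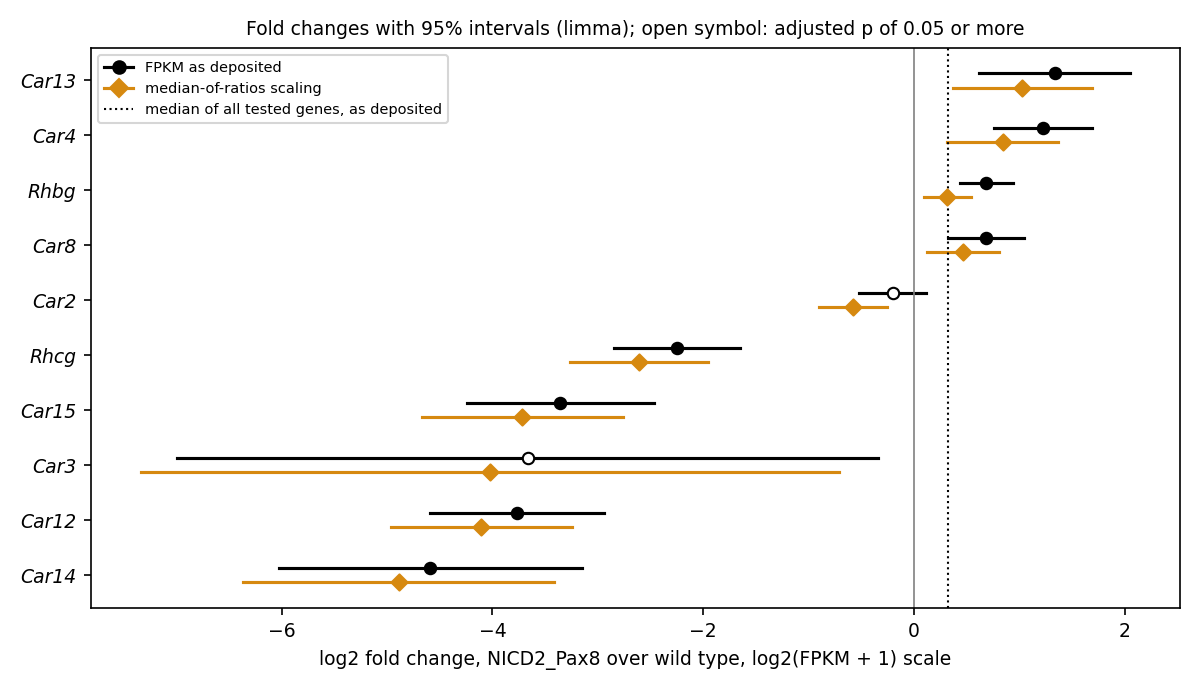
Log2 fold changes on the log2(FPKM + 1) scale, NICD2_Pax8 over wild type, with 95% intervals from limma over 3 libraries a group, for FPKM as deposited (circles) and after median-of-ratios scaling (diamonds); open symbols did not pass. Car14, Car12, Car15 and Rhcg lie below 0 and Car13, Car4, Rhbg and Car8 above 0 under both, and Car2 and Car3 passed only after scaling.

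Among cytosolic forms, Car2 was abundant in both groups and did not pass the test. Car2 (gene 12349, chromosome 3, 14886269 to 14900770), the fast enzyme of intercalated and proximal tubule cells, measured 262.3, 196.8 and 201.3 FPKM in the 3 NICD2_Pax8 libraries. The wild-type libraries stood at 250.8, 251.0 and 251.6 FPKM, between NICD2_Pax8 replicate 1 above and replicates 2 and 3 below. The log2 fold change was -0.20 (95% interval -0.52 to 0.12, limma adjusted p = 0.229). Whether Car2 was lower relative to the bulk of genes depended on the scaling. After median-of-ratios scaling the value was -0.58 (limma adjusted p = 0.0104), but with quantile normalization it was -0.01 (limma adjusted p = 0.945). Without NICD2_Pax8 replicate 1 it was -0.33 unscaled (limma adjusted p = 0.0221). Car2 is also a major enzyme of red blood cells, and red cell transcripts differed between the groups. All 5 tested red cell markers, the globins Hba-a1, Hba-a2, Hbb-bs and Hbb-bt and the haem synthesis enzyme Alas2, fell, and the list summed to 69.6 to 140 FPKM in NICD2_Pax8 libraries and 512 to 2429 FPKM in wild-type libraries. Alas2 reached 1 FPKM in wild-type libraries only, and so passed the filter through that group. Over all tested genes 16.2% were lower. Hba-a2 and Hba-a1, near-identical copies between which reads may be split, had the smallest p, and Hbb-bs was the most abundant. The part of red cells in the level of Car2 was not tested.

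Car13 (gene 71934, chromosome 3, 14641727 to 14663002), a cytosolic form at a low level, had 11.3, 7.17 and 9.12 FPKM in the 3 NICD2_Pax8 libraries and 4.96, 2.91 and 1.72 FPKM in the 3 wild-type libraries. The groups were apart, and the rise was 2.88-fold in mean FPKM (log2 fold change 1.34, SE 0.30, limma adjusted p = 0.00766). Car8 (gene 12319, chromosome 4, 8141493 to 8239041), a relative without enzyme activity, known in brain as a partner of the inositol trisphosphate receptor, measured 2.53, 1.83 and 1.80 FPKM in the 3 NICD2_Pax8 libraries, against 0.89, 1.07 and 0.72 FPKM in the 3 wild-type libraries. Its values did not overlap and rested on about 172 to 225 fragments a library in NICD2_Pax8 and 60 to 87 in wild type. All 3 NICD2_Pax8 libraries reached the filter level of 1 FPKM, and 1 wild-type library did. The log2 fold change of Car8 was 0.69 (SE 0.15, limma adjusted p = 0.00726), and 0.47 after median-of-ratios scaling (adjusted p = 0.0296). With quantile normalization (adjusted p = 0.0707), and when wild-type replicate 1 was left out of the scaled fit (adjusted p = 0.0555), it did not pass.

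Car3 and summed fat transcripts put the libraries in the same order, though not at a constant ratio. Car3 (gene 12350, chromosome 3, 14863538 to 14872381), a cytosolic form with low activity known from muscle and fat, measured 3.84, 94.3 and 14.0 FPKM in the 3 NICD2_Pax8 libraries. The 3 wild-type libraries stood at 1063, 283.4 and 45.9 FPKM, so NICD2_Pax8 replicate 2 lay above wild-type replicate 3 and the groups overlapped. The mean was 12.4-fold lower in NICD2_Pax8 (log2 fold change -3.67, 95% interval -6.99 to -0.34, limma adjusted p = 0.0563), and it did not pass. After median-of-ratios scaling the adjusted p was 0.0453. Leaving out 1 library moved the difference in mean FPKM to 4.4-fold without wild-type replicate 1 (adjusted p = 0.137) and to 52.0-fold without NICD2_Pax8 replicate 2 (adjusted p = 0.0248). Without wild-type replicate 3 it was 18-fold (adjusted p = 0.0224).

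All 10 listed fat markers had values. They summed to 64.9, 438.1 and 128.2 FPKM in the 3 NICD2_Pax8 libraries and to 4773, 955.8 and 160.6 FPKM in the 3 wild-type libraries. Ordered by this sum, the 6 libraries stood in the same order as by Car3. Not every marker of the sum kept that order: Cfd measured 37.0 FPKM in NICD2_Pax8 replicate 3 and 26.5 FPKM in wild-type replicate 3. The ratio of Car3 to the sum was 0.059 to 0.215 in NICD2_Pax8 libraries and 0.223 to 0.296 in wild-type libraries. Of the 8 tested fat markers 0 passed by limma at adjusted p, 8 passed as lower without wild-type replicate 3, 1 had an unadjusted p under 0.05, and 1 passed after median-of-ratios scaling. Fabp4, the most abundant and the one with the smallest p, and Cidea, next in p, are a fatty acid carrier and a lipid droplet protein of adipocytes. The defining markers Lep and Ucp1 were at 0 in NICD2_Pax8 replicates 1 and 3. The part of fat in the level of Car3 was not tested. Markers of skeletal muscle, another known source of Car3, summed to 2.51 to 4.86 FPKM in NICD2_Pax8 libraries and to 0.89 to 1.77 FPKM in wild-type libraries. The part of muscle in the level of Car3 was not tested either.

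**Figure D3:**
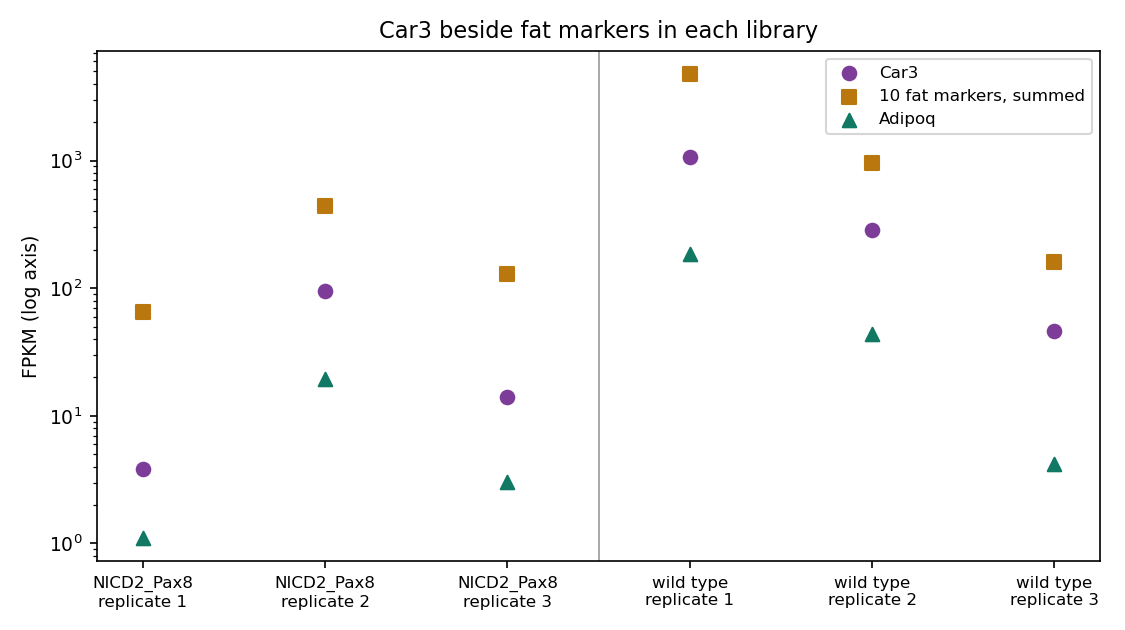
FPKM of Car3 (circles), of 10 fat markers summed (squares) and of Adipoq, the fat hormone adiponectin (triangles), in each library on a log axis, NICD2_Pax8 left and wild type right. All 3 order the 6 libraries alike, from wild-type replicate 1, the highest, to NICD2_Pax8 replicate 1, the lowest. Adipoq is part of the sum and was chosen after its values were seen, so it is not a separate measure.

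Profiles over the 6 libraries were compared among tested genes with a standard symbol, leaving out Gm, LOC, Rik and BGI names, NOTCH2 and Xist. Of these genes the closest to Car3 was Adipoq, with a root mean square distance of 0.62 on the centred log2 scale, followed by Thrsp at 0.64. Adipoq measured 1.10, 19.5 and 3.02 FPKM in the 3 NICD2_Pax8 libraries against 184.6, 44.1 and 4.23 FPKM in the 3 wild-type ones. The ratio of Car3 to Adipoq was 3.49 to 4.84 in NICD2_Pax8 libraries and 5.76 to 10.9 in wild-type libraries. For Car12 the closest genes were Alpl and Pth1r, at distances of 0.08 and 0.10, and for Car14 Nat8 and Ttr, at 0.19 and 0.21. Car15 lay closest to Ass1 and Dnajc12, at 0.10 and 0.16, and Rhcg to H2bc4 and Sqor, at 0.10 and 0.11. Car4 lay closest to Vsig8 and Ctdspl, at 0.06 and 0.07, and Rhbg to Macroh2a1 and Cap1, at 0.03 each. Vsig8 measured only 1.06 to 2.09 FPKM in NICD2_Pax8 libraries and 0.03 to 0.16 FPKM in wild-type libraries, and passed the filter through NICD2_Pax8 alone. The log2(FPKM + 1) scale understates changes at that level, so its small distance to Car4 does not mean a like fold. Car2 was closest to Cul2 and Aftph (0.03 and 0.04), Car13 to Apol9b and Dock10 (0.09 and 0.10) and Car8 to Zfp266 and Slc22a21 (0.04 and 0.05). Among the 10 genes themselves, Car12 and Car15 were 0.24 apart, Car8 and Rhbg 0.18 apart, and Rhcg and Rhbg 1.5 apart.

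Car13, Car3 and Car2 lie in this order on chromosome 3, within 14641727 to 14900770, with Car1, which was under the filter, between Car13 and Car3. Over this stretch Car13 rose, while Car3 and Car2 did not pass. Farther along the same chromosome, Car14 fell and Rhbg rose.

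The mix of carbonic anhydrases differed between the groups. Summed FPKM of all 8 forms was 551.1, 747.3 and 655.7 in the 3 NICD2_Pax8 libraries, against 1677, 975.9 and 799.3 in the 3 wild-type libraries, lower in NICD2_Pax8 with no overlap. Without Car3, a pool chosen after the data were seen, the sum was 547.3, 653.0 and 641.7 in the 3 NICD2_Pax8 libraries, against 613.4, 692.5 and 753.4 in the 3 wild-type libraries, and the groups overlapped. Car12, Car14 and Car15 together made up 8.42, 32.9 and 18.2 FPKM of this in the 3 NICD2_Pax8 libraries, and 217.7, 276.1 and 344.5 FPKM in the 3 wild-type libraries. Car4 was the most abundant of the 10 genes in each NICD2_Pax8 library. In the wild-type libraries its ranks were 3, 3 and 2. The most abundant there was Car3 in replicates 1 and 2 and Car2 in replicate 3.

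Shares within 1 library do not depend on scaling between libraries. Of the sum of all 8 forms, Car4 held 55.3% ± 7.52 in NICD2_Pax8 and 14.7% ± 5.76 in wild type (SD, n = 3 each). The two-sided exact permutation p was 0.1, the smallest that 3 against 3 libraries can give. In this pool and for Rhcg 9 shares were tested, and the shares of the pool without Car3 were tested as well. Shares of 1 pool depend on each other. Car15 held 1.70% ± 0.696 in NICD2_Pax8 and 11.8% ± 6.32 in wild type, Car14 held 0.449% ± 0.407 in NICD2_Pax8 and 8.91% ± 5.75 in wild type, and Car12 held 0.754% ± 0.342 in NICD2_Pax8 and 7.40% ± 3.06 in wild type (SD, n = 3 each; exact permutation p = 0.1 each). Car13 held 1.47% ± 0.554 in NICD2_Pax8 and 0.270% ± 0.0473 in wild type, and Car8 held 0.326% ± 0.116 in NICD2_Pax8 and 0.0843% ± 0.0287 in wild type (SD, n = 3 each; exact permutation p = 0.1 each). The libraries did not overlap for these 6 shares. Car2 held 34.9% ± 11.2 in NICD2_Pax8 and 24.0% ± 8.38 in wild type (SD, n = 3 each; exact permutation p = 0.4), and Car3 held 5.15% ± 6.51 in NICD2_Pax8 and 32.7% ± 29.0 in wild type (SD, n = 3 each; exact permutation p = 0.2). With Car3 left out of the sum, Car4 held 58.5% ± 9.11 in NICD2_Pax8 and 22.2% ± 1.44 in wild type, and Car2 held 36.5% ± 9.93 in NICD2_Pax8 and 36.8% ± 3.78 in wild type (SD, n = 3 each).

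**Figure D4:**
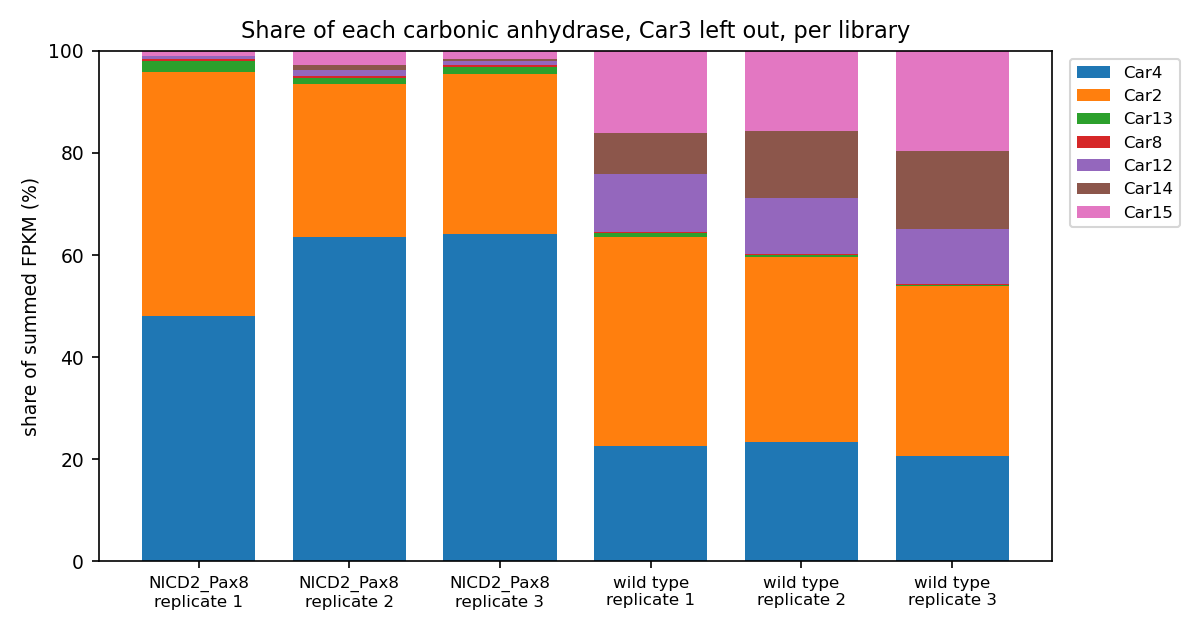
Share in percent of each carbonic anhydrase in the summed FPKM of the 7 forms other than Car3, 1 bar a library, NICD2_Pax8 left and wild type right. Car4 takes 48.0% to 64.1% in NICD2_Pax8 libraries and 20.6% to 23.3% in wild-type libraries, where Car12, Car14 and Car15 fill much of the rest beside Car2.

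The ammonia channels also parted. Rhcg (gene 56315, chromosome 7, 79593363 to 79617657), found on the apical and basolateral membranes of collecting duct cells, measured 7.36, 15.9 and 11.4 FPKM in the 3 NICD2_Pax8 libraries, against 52.7, 52.8 and 64.5 FPKM in the 3 wild-type libraries. Every NICD2_Pax8 library was below every wild-type library. Rhcg fell 4.89-fold in mean FPKM (log2 fold change -2.25, SE 0.25, limma adjusted p = 4.40e-04). Rhbg (gene 58176, chromosome 3, 88242874 to 88254739), found on the basolateral membrane, measured 36.4, 40.1 and 37.5 FPKM in the 3 NICD2_Pax8 libraries, against 26.1, 21.6 and 22.3 FPKM in the 3 wild-type libraries. It rose 1.63-fold in mean FPKM (log2 fold change 0.69, SE 0.11, limma adjusted p = 0.00153). Relative to the bulk of genes the rise of Rhbg was smaller, at 0.32 on the log2 scale after median-of-ratios scaling (adjusted p = 0.0270). The interval of that value was 0.09 to 0.54.

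Rhcg made up 16.8%, 28.5% and 23.4% of the pair's summed FPKM in the 3 NICD2_Pax8 libraries, and 66.9%, 71.0% and 74.3% in the 3 wild-type libraries. The order of the channels differed between the groups, with Rhbg above Rhcg in each NICD2_Pax8 library and Rhcg above Rhbg in each wild-type library. The difference in share was -47.9 percentage points (exact permutation p = 0.1). The sum of both was 43.8 to 56.0 FPKM in NICD2_Pax8 libraries and 74.3 to 86.7 FPKM in wild-type libraries, and did not overlap.

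Markers of intercalated cells, where both channels and Car2 are found, fell in the same libraries. Of 14 tested markers, which include the exchangers Slc4a9, Slc26a4 and Slc4a1 described further on, 12 fell and 0 rose, with a median log2 fold change of -2.58. Over all tested genes 16.2% were lower and 45.1% higher. Insrr, Hmx2 and Dmrt2, counted among the falls, reached 1 FPKM in wild-type libraries only and so passed the filter through that group. Without any 1 wild-type library 9 of the list were lower. Atp6v0d2 and Atp6v1g3, subunits of the proton pump with the smallest p of the list, fell 10.3-fold and 20.3-fold in mean FPKM. The markers that did not pass were Tfcp2l1, a transcription factor, at 43.4 ± 2.08 FPKM in NICD2_Pax8 and 42.1 ± 6.27 in wild type, and Atp6v0a4, a pump subunit, at 90.3 ± 24.9 FPKM in NICD2_Pax8 and 92.6 ± 18.2 FPKM in wild type (SD, n = 3 each). Summed FPKM of the 14 was 149.5 to 200.6 in NICD2_Pax8 libraries and 283.1 to 377.1 in wild-type libraries, with 0 markers at 0 in any library. Of 10 principal cell markers, where Rhcg is also found, 4 rose and 2 fell, and after median-of-ratios scaling 4 rose and 4 fell. The unscaled counts are near the shares of all tested genes, 45.1% higher and 16.2% lower. After scaling, 27.6% of all tested genes were higher and 27% lower. Those that rose unscaled were Scnn1g and Scnn1b, subunits of the sodium channel, and the transcription factors Elf5 and Gata3, and those that fell were the water channels Aqp2 and Aqp3, joined after scaling by Hsd11b2, which inactivates glucocorticoids, and Avpr2, the vasopressin receptor. Elf5, at 0.1 to 0.65 FPKM in wild-type libraries, passed the filter through NICD2_Pax8 only. The part of these cell types in the levels of Rhcg and Rhbg was not tested.

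Of 10 other carbonic anhydrases and Rhesus genes listed, 4 passed the filter, and all 4 fell, where 16.2% of all tested genes were lower. Among NICD2_Pax8 libraries, Car7 and Car9 reached 1 FPKM in replicate 2 only. Car11 did so in none of them, and so passed the filter through the wild-type group. Car5b, a mitochondrial form, averaged 5.70 ± 1.86 FPKM in NICD2_Pax8 and 23.1 ± 6.56 in wild type (SD, n = 3 each; limma adjusted p = 0.00120). Car7, a cytosolic form, fell 3.46-fold and Car9, known as a target of hypoxia signalling, 4.80-fold in mean FPKM. Car11, a relative without enzyme activity, fell 4.66-fold, and 2.71-fold without wild-type replicate 1, which held 4.14 FPKM against 1.49 and 1.13 FPKM in the other wild-type libraries. The call of Car11 (limma adjusted p = 0.0319) was lost with a pseudocount of 5 (adjusted p = 0.0577), with no filter (0.0517) and without any 1 NICD2_Pax8 library (0.0645 to 0.0976). Without any 1 wild-type library Car11 no longer reached the filter. Car5a, another mitochondrial form, measured 0.06, 0.48 and 0.10 FPKM in the 3 NICD2_Pax8 libraries against 0.31, 2.43 and 2.68 FPKM in the 3 wild-type ones, under the filter. Car1, Car6, Car10 and Rhag did not exceed 0.20 FPKM in any library, and the row of Rhd held no values. Car1 and Rhag, known from red cells, were listed at 0 in 5 libraries each.

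Genes of ammonia production and transport mostly fell, and bicarbonate transporters mostly did not pass. Of 9 tested ammonia genes 7 fell and 1 rose, with a median log2 fold change of -1.71. Over all tested genes 16.2% were lower and 45.1% higher. Pck1, which makes glucose from the carbon of glutamine, averaged 107.0 ± 58.0 FPKM in NICD2_Pax8 and 2005 ± 279.6 FPKM in wild type (SD, n = 3 each; limma adjusted p = 2.65e-04). Slc38a3, the glutamine transporter of the proximal tubule, fell 5.41-fold. Glud1, the mitochondrial enzyme that releases ammonia from glutamate, fell by 0.60 on the log2 scale. The member that rose was Hcn2, a cation channel, at 3.51, 6.02 and 4.84 FPKM in the 3 NICD2_Pax8 libraries and 1.07, 0.51 and 0.35 FPKM in the 3 wild-type libraries. Slc12a2, a salt cotransporter that can carry ammonium, did not pass, at 7.84 ± 2.15 FPKM in NICD2_Pax8 and 7.51 ± 0.947 FPKM in wild type (SD, n = 3 each).

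Of 10 tested bicarbonate transporters 3 fell and 1 rose, with a median log2 fold change of -0.19, where 16.2% of all tested genes were lower and 45.1% higher. Slc4a9 and Slc26a4, exchangers of the intercalated cell, fell 19.0-fold and 19.5-fold in mean FPKM. Without NICD2_Pax8 replicate 2 the fall of Slc26a4 was 34.1-fold. Slc4a1, the exchanger that in intercalated cells returns bicarbonate to blood, fell 9.26-fold. Slc4a2, a widely expressed exchanger, rose 1.49-fold, and did not pass after median-of-ratios scaling (log2 fold change 0.19, adjusted p = 0.189). Slc4a4, which passes bicarbonate from proximal tubule cells to blood, had 121.5, 115.0 and 148.8 FPKM in the 3 NICD2_Pax8 libraries and 89.2, 122.2 and 112.2 FPKM in the 3 wild-type libraries. These values overlapped, and the log2 fold change was 0.25 (limma adjusted p = 0.202).

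**Figure D5:**
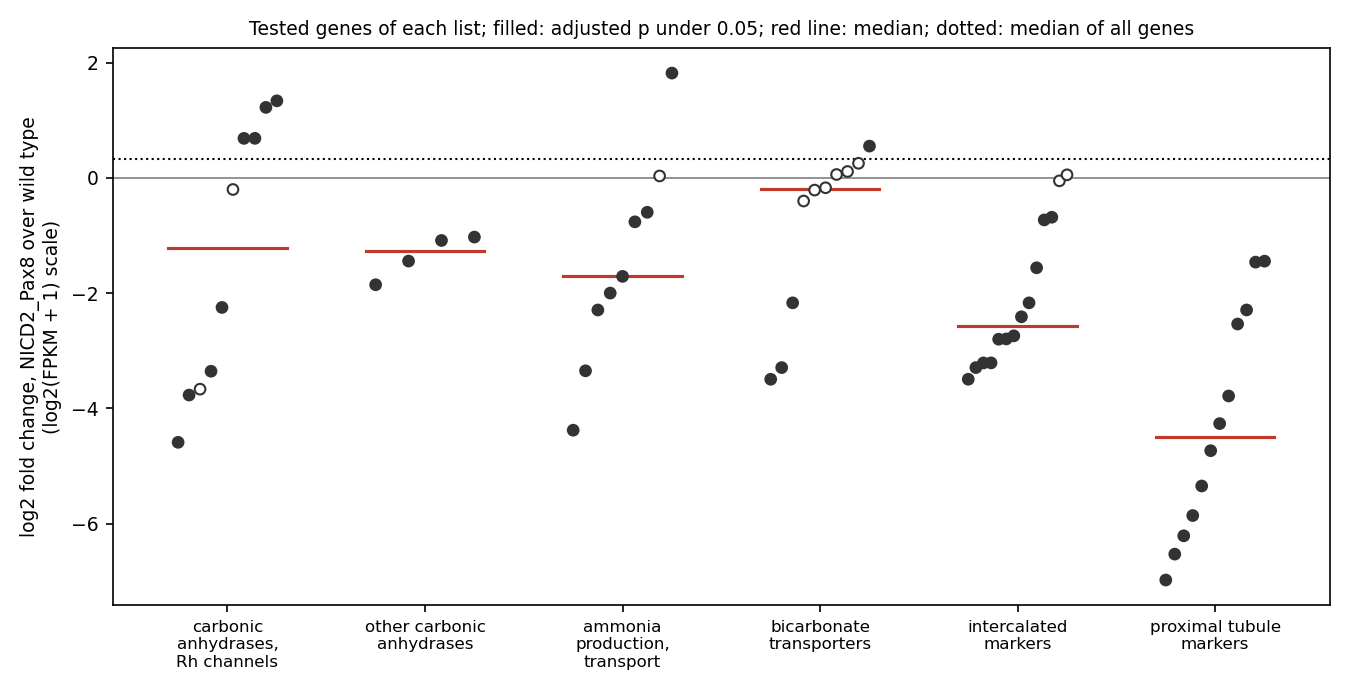
Log2 fold change, NICD2_Pax8 over wild type on the log2(FPKM + 1) scale, of each tested gene of 6 lists; filled points passed, red lines are list medians and the dotted line is the median of all 13500 tested genes. The 10 carbonic anhydrases and Rhesus channels spread from -4.59 to 1.34, while the 12 proximal tubule markers and 12 of 14 intercalated markers lie below 0 and passed.

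In the authors' deposited table all 10 genes had a q under 0.05. The log2 fold changes given there were negative for Car2, Car3, Car12, Car14, Car15 and Rhcg and positive for Car4, Car8, Car13 and Rhbg, the same signs as above. For Car2 the authors' deposited table gave -0.56 with a q of 7.24e-04, and for Car3 -2.89 with a q of 0.0199. Over all genes of the authors' deposited table with a q, 21.3% were called higher and 21.5% lower. Of the other marker lists, 5 of 6 tested markers of the thick ascending limb fell, Ptger3, Egf, Kcnj1, Slc12a1 and Cldn16, and 5 of 7 tested macrophage markers rose, Cd14, Itgam, Cd68, Mrc1 and Lyz2. These counts are from limma, by which 45.1% of all tested genes were higher and 16.2% lower. The thick limb marker that did not pass was the most abundant of its list. It averaged 1346 ± 338.9 FPKM in NICD2_Pax8 and 1118 ± 425.5 FPKM in wild type (SD, n = 3 each). The macrophage markers Csf1r (log2 fold change 0.09, limma adjusted p = 0.751) and Adgre1 (0.52, limma adjusted p = 0.389) did not pass. Slc12a1 is also counted among the 7 ammonia genes that fell. The part of these cells in the levels of the 10 genes was not tested, and the single tested adrenal and muscle markers, Star and Mylpf, did not pass.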

How the data were processed

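The deposited table held, per the file headers, FPKM per library made by the authors, mean FPKM per group, and the log2 fold changes, p-values and q-values of the authors' own comparison, which the headers name as DESeq2. Bowtie 0.12.2 and build mm8 are listed, per the submitters' processing notes. The positions are not of that build, since 19406 of 22002 matched gene identifiers (88.2%), and all 10 genes described, had the start and end of RefSeq on GRCm38. The counting tool is not given in the sources used here, and the library kit named in the labels does not mark strand, so overlapping antisense genes cannot be told apart. There were 0 unmapped library columns, and transcript lengths and numbers deposited by the authors (other columns) served only the depth estimate.

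Of the rows, 4370 held no values. The remaining 19503 were cut to the 13500 that reached 1 FPKM in 3 libraries, and tested two-sided with limma 3.58.1 (mean-variance trend, R 4.3.3) on log2(FPKM + 1) with genotype as the only term. Folds are ratios of mean FPKM, and log2 fold changes are on the log2(FPKM + 1) scale, which understates changes of low genes. For the depth estimate, single-transcript genes between 500 and 1500 bases were used, and 71.5% to 78.7% of values up to 8 fragments lay within 0.15 of a whole number; fragment numbers per gene assume the longest transcript, and no count test was made. On simulated data over 13500 genes, 63% of 100 genes changed by log2 1 and 86% of 100 changed by log2 2 were recovered. No other genes were changed in that simulation, whereas 61.4% of tested genes were called in the data. The adjustment of p is stricter when few genes change, so these rates do not carry over to the data.

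The genes and lists were chosen with earlier results of these data known. All 10 genes are named, with the 2 genes of smallest p of each list and every gene of a count of 5 or fewer. Also named are the most abundant gene of each list of another tissue and the 2 nearest profiles among genes with standard symbols. Other genes, Glud1, Kap, Slc12a2, Slc4a4, Car5a, Insrr, Hmx2, Dmrt2, Adipoq beside Car3, Cfd, Lep and Ucp1, were chosen after their values were seen. Protein sequences were not used here, and 1 listed gene is not reported here by name.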

Additional observations from a re-analysis of the deposited data

How the results depend on the processing

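Without scaling 6095 genes were higher and 2190 lower in NICD2_Pax8 kidneys. With median-of-ratios scaling these counts were 3725 and 3642 (50.6% higher in place of 73.6%), with quantile normalization 3866 and 3558, and with wild-type replicate 1 left out of the scaled fit 3953 and 3780. Leaving out 1 library gave 4604 to 6644 higher and 1625 to 2062 lower. The 4 rises and 4 falls among the 10 genes kept direction under every alternative run, and all but Car8 kept their call. Car8 lost it with quantile normalization (0.35) and with wild-type replicate 1 left out of the scaled fit (0.44). Car2 passed with median-of-ratios scaling (-0.58), and without wild-type replicate 1 as well (-0.65), and ranged from -0.33 to -0.13 with 1 library left out. With quantile normalization Car2 stood at -0.01 and did not pass. Car3 passed with median-of-ratios scaling (-4.02) and ranged from -4.85 to -2.60 with 1 library left out. The cause was not tested.

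Among lists, 0 bicarbonate genes were higher with median-of-ratios scaling, with quantile normalization, and with wild-type replicate 1 left out of the scaled fit, where 5 were lower. Median-of-ratios scaling gave 4 principal cell genes and 1 fat gene lower, and without wild-type replicate 1 it gave 1 macrophage gene lower. With no filter 2 ammonia genes and 2 muscle genes were higher, and at an adjusted p of 0.01 2 macrophage genes were. Leaving out 1 library gave 0 to 8 fat genes lower, with 8 without wild-type replicate 3. Leaving out Car3 from the pool, chosen after seeing the data, gave a difference in share of Car12 of -10.3 percentage points, against -6.65 with Car3 in the pool.

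With the replicate number as a block, 5818 genes were higher and 2164 lower, and 4 of the 10 genes were higher and 4 lower. It changed no call among them. The numbers share no pairing in the labels, and deviations of same-numbered libraries correlated at 0.0951, -0.0498 and 0.00560 over 13500 genes, and not every library correlated best with its own number. Depth limits the lowest values: 15 fragments for Car14 in NICD2_Pax8 replicate 1.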
